A study of Homo sapiens with 24 samples.

Results

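The comparison set the response of MOLM14 to metformin against that of U937. Both are human lines of the monocytic branch of myeloid leukaemia, MOLM14 from an acute leukaemia that carries an activating FLT3 duplication and U937 from a histiocytic lymphoma. For each gene the measure was the metformin-minus-untreated change in MOLM14 minus the same change in U937, called here the difference in response. It used 12 of the study's 24 arrays, 3 in each of 4 groups: untreated MOLM14, MOLM14 with 10 mM metformin for 24 h, untreated U937, and U937 with the same dose and time. The other 12 arrays hold HL60 and KG1a in the same design. The submitters class MOLM14 as a line with high oxidative phosphorylation (OXPHOS) and U937 as one with low OXPHOS, and a second label puts treated MOLM14 with the low OXPHOS arrays. The series set out to find genes that mark high OXPHOS function. Whether the 3 arrays of a group stand for 3 cultures is not stated in the labels. The p-values therefore rest on array-to-array spread, which may be technical, and the small number of arrays limits the precision.

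Metformin is a biguanide that blocks complex I of the respiratory chain. Cells that lose respiration sense the lack of energy through the kinase AMPK and the lack of aspartate and other amino acids through the kinases of the integrated stress response, which raise translation of the transcription factor ATF4. ATF4 switches on amino acid synthesis, tRNA charging and the CHOP gene DDIT3, while sterol synthesis is set by the SREBP factors and their regulator INSIG1. Monocytic cells also express chemokines, Toll-like receptors and granule proteins, whose genes depend on NF-kB, AP-1 and myeloid factors.

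All values are log2 array signals, and a change or difference is given in log2 units ± the standard error (SE) of the fit. A gene is called where limma's moderated test gives an adjusted p (Benjamini-Hochberg over 10641 genes) under 0.05. Among the monocytic and line markers that have a row on the array, 12 of 15 reached 4.02, the median of all rows, in each line. CD68, LYZ, TYROBP and IRF8 were well above it in both, whereas CD14 (3.62 in untreated MOLM14 and 3.44 in untreated U937) and TLR8 were below it in both. FLT3 was at 10.38 in untreated MOLM14 and 3.35 in untreated U937. The mean of the 15 markers was 7.14 to 7.20 over the arrays of untreated MOLM14 and 6.97 to 6.99 over those of treated MOLM14, and 6.25 to 6.33 and 6.14 to 6.26 in U937. Means of the erythroid, megakaryocyte, lymphoid, fibroblast and epithelial lists lay between 3.43 and 4.96 on all 12 arrays. Single members were far higher: NKG7 at 9.73 in untreated U937, and NCAM1 at 7.85 and KRT18 at 7.62 in untreated MOLM14. In each line 6 of 12 T and NK markers reached 4.02. Of 6 B cell markers 2 reached it in MOLM14 and 4 in U937. In bulk RNA fewer cells of a type and less RNA per cell cannot be told apart.

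The difference in response was called for 225 of 10641 genes (2.11%), positive in 105 (0.987%) and negative in 120 (1.13%). Sizes ran from 0.37 to 1.72, and 139 of the 225 genes differed at least 1.5-fold and 15 at least 2-fold. Over all genes tested the median difference was 0.01. Within MOLM14 alone 264 genes rose (2.48%) and 274 fell (2.57%). In U937 alone 794 rose (7.46%) and 1036 fell (9.74%). Among the 12 arrays, U937 control C and U937 metformin A stood apart from their groups. Without both, 207 genes were called, 146 of them among the 225, and 20 of the 93 called genes picked by the naming rules lost their call. Omitting 1 array at a time gave between 130 genes (without MOLM14 control B) and 246 (without U937 control C). Below, a call lost without any of several arrays is one that ended when each of them was omitted alone.

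Most called genes passed the test of the metformin change in 1 line and not in the other. Of these, 64 fell and 64 rose in U937, and 35 fell and 24 rose in MOLM14. Both lines rose for 10 genes, each of them more strongly in U937, and both fell for 9, of which 7 fell more in U937 and the other 2, MNDA and IRS2, fell more in MOLM14. The lines moved in opposite directions for 9 genes: FGF7P6, RITA1, DUSP6, SPRY2 and DLL1 rose in MOLM14 and fell in U937, and TMT1A, CES1, ARID5B and MYOF did the reverse. For the last 10 genes neither line passed on its own. Signal level differed among them: 29 called genes lay below 4.02 in both MOLM14 groups, 23 in both U937 groups and 1 in both lines, and 172 reached it in both lines. Called genes made up 4.11% of the 706 genes dim in MOLM14, 3.77% of the 610 dim in U937 and 2.01% of the 8569 measured in both. The part of low signal in these differences was not tested.

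**Figure D1:**
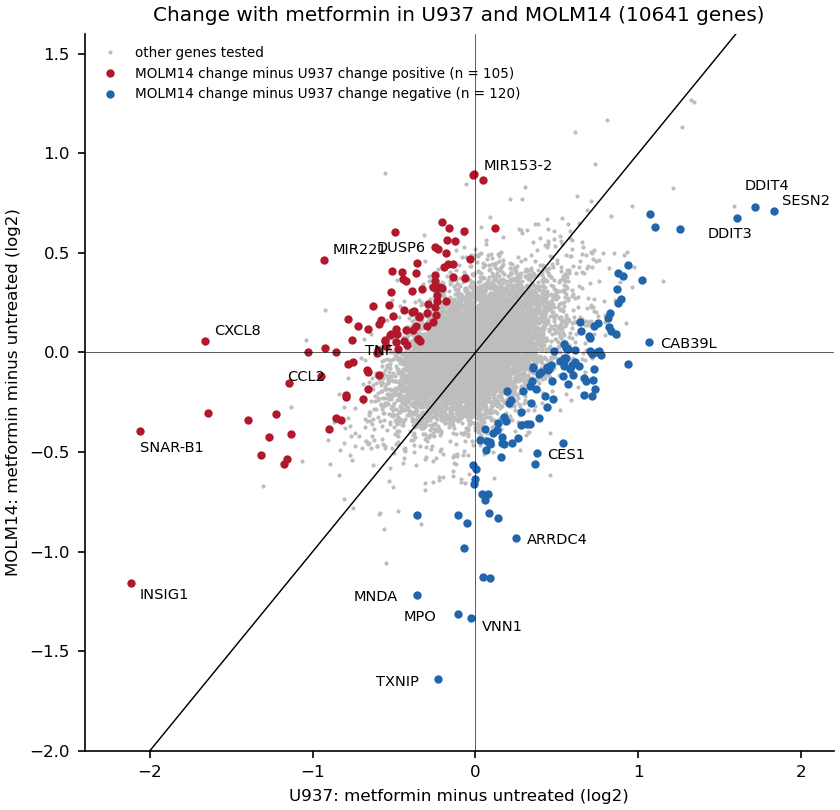
Change with metformin in U937 (horizontal axis, log2) and in MOLM14 (vertical axis, log2) for 10641 genes. The diagonal marks equal changes, red points are the 105 genes with a called positive difference in response and blue points the 120 with a negative one; CXCL8 lies far to the left with no fall in MOLM14, and TXNIP, MPO and VNN1 lie low with little change in U937.

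The largest positive difference was that of CXCL8, at a MOLM14 signal below 4.02. CXCL8, the neutrophil-attracting interleukin 8, measured 6.55, 6.53 and 6.24 in untreated U937 and 5.07, 4.87 and 4.39 after metformin, a 3.16-fold fall. In MOLM14 it measured 3.74, 3.62 and 3.49 untreated and 3.63, 3.81 and 3.57 treated. The U937 groups did not overlap, and all MOLM14 arrays lay near the lower end of the scale. The difference in response was 1.72 ± 0.21 (limma, adjusted p = 5.08e-05). CCL2, a monocyte attractant, went from 10.59, 10.79 and 10.72 to 9.79, 9.86 and 9.37 in U937 and had a difference of 1.03 ± 0.23 (limma, adjusted p = 0.013, and 0.074 when the 12 arrays were fitted alone). In MOLM14 the arrays of CCL2 spread from 3.40 to 4.20 untreated and from 3.43 to 4.02 treated.

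TNF, a main inflammatory cytokine, was well measured in both lines. Its arrays read 8.65, 8.67 and 8.51 in untreated MOLM14 and 8.77, 8.62 and 8.62 in treated MOLM14. In U937 they read 6.43, 6.79 and 6.59 untreated and 5.82, 5.88 and 5.83 treated, with no overlap. The difference was 0.82 ± 0.14 (limma, adjusted p = 0.00131). FPR2, a formyl peptide receptor, fell in U937 from 6.18, 6.20 and 5.87 to 5.21, 5.58 and 5.48, and all MOLM14 arrays were at 3.27 or below. Its difference was 0.78 ± 0.16 (limma, adjusted p = 0.0068).

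Of 36 chemokine and cytokine genes with a row, 21 passed the filter on dim values. Of these, 3 had a positive difference (CXCL8, CCL2 and TNF) and 1 a negative one, against 0.987% and 1.13% of all genes. CXCL8 and CCL2 had MOLM14 means below 4.02 and passed the filter through other lines. Their differences rest on the fall in U937, and only TNF of the positive ones was measured in both lines. The negative one was IL1RN, the interleukin 1 receptor antagonist (-0.59 ± 0.13), which fell in MOLM14 by 0.42 and was at 0.16 in U937. IL1RN lost its call without U937 metformin C (adjusted p = 0.054). It also lost it in the fit of the 12 arrays alone and without both arrays that stand apart. The median of the list was 0.10, and it was 0.02 without U937 control C and -0.01 without both arrays that stand apart. Of the 28 receptor genes, FPR2 had a positive difference and CCR2 and CSF1R negative ones, against the same shares. FPR2 was below 4.02 in MOLM14 and CCR2 in U937, so each of these differences rests on the other line. GPR84, a receptor for medium-chain fatty acids on myeloid cells that was named after its values were seen, fell in U937 by 1.27 and measured -0.42 in MOLM14 (difference 0.84 ± 0.18). Of the 13 tested genes of the NF-kB pathway and its feedback 0 were called, a share that 13 genes cannot set apart from 2.11%. TLR4 fell in U937 by 0.51 with a difference of 0.51 ± 0.17 that did not pass (limma, adjusted p = 0.127), and it was below 4.02 in MOLM14.

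The proximal promoters of CXCL8 and DUSP6, the latter a gene that moved in opposite directions in the lines, are shown because both hold letters that match the NF-kB site. CXCL8 also holds an AP-1 match. Sequences are RefSeq's on GRCh38.p14, read 5′ to 3′ along the gene's own strand, with matches in capitals.
CXCL8 promoter, chr4:73740407-73740511, plus strand, AP-1 match first and NF-kB-like match second: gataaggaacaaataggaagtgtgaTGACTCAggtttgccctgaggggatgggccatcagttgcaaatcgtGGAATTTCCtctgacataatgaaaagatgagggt
DUSP6 promoter, chr12:89352622-89352680, minus strand, NF-kB-like match: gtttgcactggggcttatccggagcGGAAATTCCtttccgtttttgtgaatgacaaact
The CXCL8 matches start 137 and 91 bases upstream of the start site and do not overlap, and that of DUSP6 starts 154 bases upstream on the opposite strand. The NF-kB-like search used GGANTTTCC and the AP-1 search TGANTCA, both strands, over 250 bases before and 50 after each start. Promoters were found for 77 of the 105 genes with a positive difference and 93 of the 120 with a negative one. The NF-kB-like letters were in 5 of the 77 (6.49%: CXCL8, DUSP6, NHSL1-AS1, PANX1 and TLR2), in 1 of the 93 (1.08%: SESN2) and in 1.58% of 8077 promoters of tested genes. AP-1 letters were in 9.09% and 9.68% of the called promoters and in 4.96% of those tested. Over all 27305 promoters searched the shares were 1.64% for the NF-kB-like letters and 7.76% for AP-1. In all 9 motifs were searched, and the shares of most are not given here. Sterol response element letters (TCACNCCAC) were in 0 of the 77, 0 of the 93 and 1.13% of those tested. These shares are descriptions without a test, and a match does not show binding.

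Among genes of the immediate early response and of ERK feedback, DUSP6 and SPRY2 moved in opposite directions in the lines. DUSP6, the phosphatase that switches ERK off, measured 6.22, 6.24 and 6.49 in untreated MOLM14 and 6.84, 6.62 and 6.57 in treated MOLM14. In U937 it measured 6.96, 7.01 and 6.96 and then 6.38, 6.58 and 6.68. Treated arrays were all higher in MOLM14 and all lower in U937. The change was 0.36 in MOLM14 (limma, adjusted p = 0.0465) and -0.43 in U937 (adjusted p = 0.00597), a difference of 0.79 ± 0.15 (adjusted p = 0.00377).

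SPRY2, an inhibitor of growth factor signalling to ERK, showed the same pattern. Its arrays read 6.91, 6.91 and 6.77 against 7.31, 7.11 and 7.36 with metformin in MOLM14, and 8.14, 8.23 and 8.06 against 7.68, 7.87 and 7.78 in U937. Neither line's groups overlapped, and the difference was 0.76 ± 0.14 (limma, adjusted p = 0.00373). FOSL1, a component of AP-1, fell in U937 by 0.58 and stood at 0.16 in MOLM14 (difference 0.75 ± 0.14, adjusted p = 0.00377). MYC rose in MOLM14 by 0.29 (adjusted p = 0.0462) and stood at -0.24 in U937, which did not pass (adjusted p = 0.0554). Its difference of 0.53 ± 0.12 lost the call without MOLM14 control B, U937 control B or U937 metformin A (largest adjusted p 0.0609).

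Over this list of 28 genes, 6 had a positive difference and 0 a negative one, against 0.987% and 1.13% of all genes, with a median of 0.22. Beside the 4 genes above these were SPRY4 (0.58 ± 0.14) and JUNB (0.58 ± 0.14), named after their values were seen, and each lost its call without any of 9 arrays (largest adjusted p 0.101 and 0.098). Within lines, 11 of the 28 genes fell and 0 rose in U937 (9.74% and 7.46% of all genes), and 4 rose and 3 fell in MOLM14 (2.48% and 2.57%). DLL1 and RITA1, which are in none of the gene lists, also moved in opposite directions. DLL1, a Notch ligand, rose by 0.32 in MOLM14 and fell by 0.33 in U937 (difference 0.65 ± 0.13). RITA1, which binds the Notch effector RBPJ, rose by 0.37 in MOLM14 and fell by 0.45 in U937 (difference 0.81 ± 0.14). For both genes the arrays of treated and untreated cells did not overlap in either line.

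**Figure D2:**
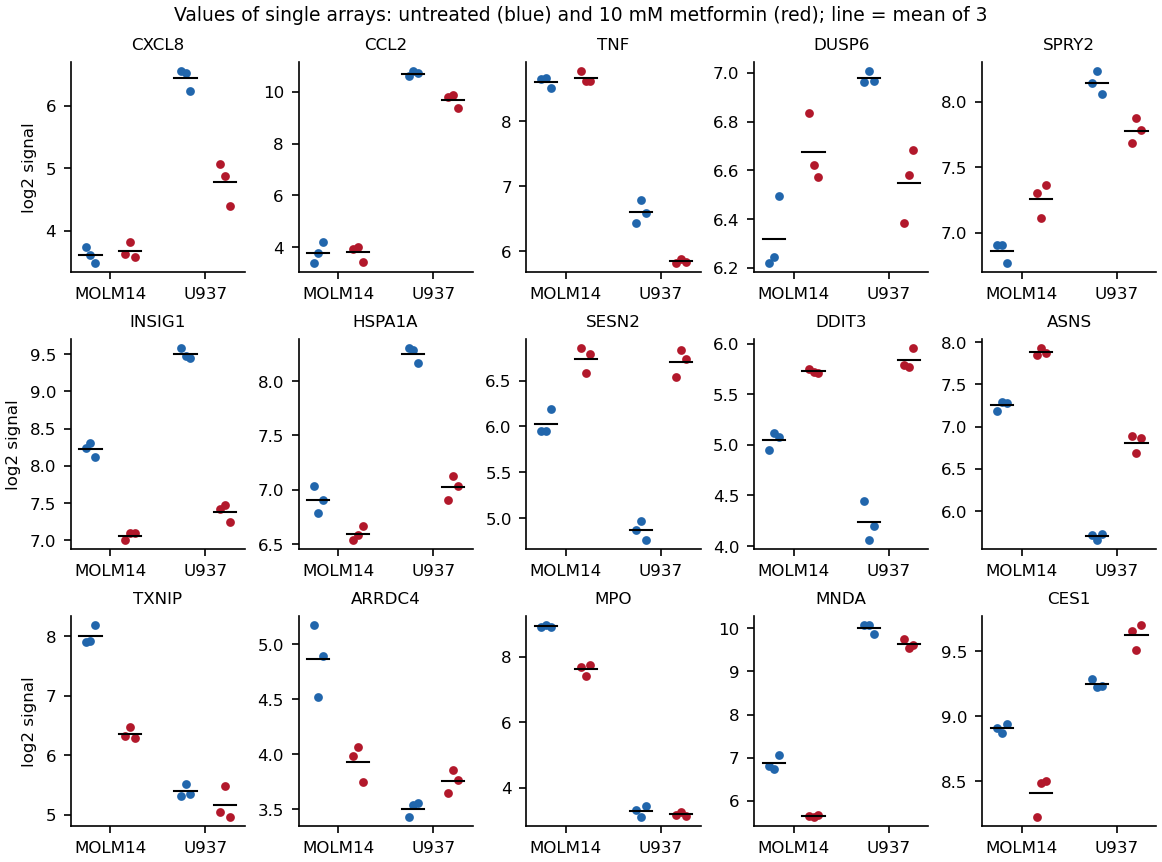
Signal (log2) on each of the 12 arrays for 15 genes, untreated in blue and with 10 mM metformin in red, 3 arrays per group, with a line at each mean. CXCL8 and TNF fell in U937 without a called change in MOLM14, MPO and TXNIP the reverse, DUSP6, SPRY2 and CES1 moved in opposite directions, and SESN2 and DDIT3 lay closer between the lines after treatment than before; each panel has its own scale that does not start at 0.

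MicroRNA loci made up 8 of the 225 called genes, 3 with a positive and 5 with a negative difference. How many microRNA loci were tested is not given here, so the 8 cannot be set against the 2.11% of all genes. The array rows cover the loci or their precursors, so a value is no measure of the mature microRNA. MIR221, whose product represses the cell cycle inhibitor p27 and the receptor KIT, measured 6.81, 6.93 and 7.23 in untreated MOLM14 and 7.69, 7.49 and 7.18 in treated MOLM14. In U937 it went from 8.32, 8.26 and 8.06 to 7.05, 7.50 and 7.31. The MOLM14 arrays overlapped and the U937 arrays did not. The difference was 1.39 ± 0.21 (limma, adjusted p = 0.000811), the largest positive one after CXCL8 and SNAR-B1.

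MIR4521 fell in U937 from 7.97, 8.09 and 7.96 to 6.49, 6.71 and 6.65, while in MOLM14 it read 8.07, 7.99 and 7.77 untreated and 7.69, 7.62 and 7.50 treated. Its arrays did not overlap in either line, though the MOLM14 change of -0.34 did not pass (limma, adjusted p = 0.0804). The difference was 1.05 ± 0.16 (adjusted p = 0.000598). MIR153-2 rose in MOLM14 from 3.96, 3.89 and 4.13 to 4.79, 4.89 and 5.00 and stayed below 4.02 on all U937 arrays (difference 0.91 ± 0.16). MIR181B1, of a family active in myeloid differentiation and named after its values were seen, fell in MOLM14 from 6.85, 6.60 and 6.66 to 6.17, 5.80 and 5.70. In U937 the treated arrays of MIR181B1 were all below 4.02 (difference -0.71 ± 0.18, adjusted p = 0.0437).

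Mature products of MIR221, MIR4521 and MIR181B1, whose arrays are given above, are printed with the seed, bases 2 to 8, in capitals, because the seed decides which transcripts a microRNA can pair with.
hsa-miR-221-3p (MIR221, chrX:45746180-45746202, minus strand): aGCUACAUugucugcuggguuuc
hsa-miR-4521 (MIR4521, chr17:8186948-8186969, plus strand): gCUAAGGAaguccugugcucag
hsa-miR-181b-5p (MIR181B1, chr1:198858925-198858947, minus strand): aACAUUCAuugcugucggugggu
hsa-miR-181b-3p (MIR181B1, chr1:198858887-198858907, minus strand): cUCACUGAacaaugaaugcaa
No seed is shared among them. The other called loci had negative differences: MIR1185-2 (-0.99 ± 0.25), MIR1972-1 (-0.88 ± 0.23), MIR4789 (-0.69 ± 0.19) and MIR370 (-0.51 ± 0.13). With 1 array left out at a time, each lost its call for at least 9 of the 12 arrays, and MIR181B1 for 10 (adjusted p up to 0.137). MIR1972-1 has a near-identical copy, so its value is uncertain. MIR21 (0.85 ± 0.23, limma, adjusted p = 0.0587) and MIR628 (-0.85 ± 0.23, adjusted p = 0.0564) did not pass.

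Most sterol synthesis genes fell in both lines, and MSMO1 and SQLE of that list fell further in U937, as did INSIG1 and FASN. INSIG1, which holds the SREBP machinery in the endoplasmic reticulum and is itself a SREBP target, went from 9.58, 9.47 and 9.45 to 7.42, 7.48 and 7.25 in U937, a 4.34-fold fall. In MOLM14 it went from 8.24, 8.31 and 8.12 to 7.01, 7.09 and 7.09, a 2.23-fold fall. Arrays did not overlap in either line. The difference was 0.96 ± 0.13 (limma, adjusted p = 0.000218). The lines stood 1.28 apart before treatment, U937 higher, and 0.32 apart after it.

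MSMO1, a demethylase of the sterol ring, fell by 1.32 in U937 and 0.52 in MOLM14, from 8.11, 7.99 and 7.89 to 6.43, 6.62 and 7.0 and from 7.73, 8.0 and 7.94 to 7.50, 7.40 and 7.23. Both falls were clear of overlap and the difference was 0.80 ± 0.16 (limma, adjusted p = 0.00735). FASN, fatty acid synthase, fell from 8.63, 8.68 and 8.46 to 7.42, 7.48 and 7.39 in U937 and from 8.16, 8.20 and 8.24 to 7.68, 7.67 and 7.64 in MOLM14 (difference 0.62 ± 0.11, adjusted p = 0.00318). SQLE, the squalene epoxidase, fell by 0.90 in U937 and 0.38 in MOLM14 (difference 0.52 ± 0.11, adjusted p = 0.0122).

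Across the 14 sterol synthesis genes tested, 12 fell in U937 and 10 in MOLM14 (9.74% and 2.57% of all genes), with medians of -0.64 and -0.41. The difference was positive for 12 genes, against 5588 of all 10641, with a list median of 0.28 against 0.01 for all genes. It was called for MSMO1 and SQLE alone, against 0.987% of all genes called positive. HMGCS1, which makes the first committed intermediate, missed the threshold (0.52 ± 0.14, limma, adjusted p = 0.0587). Of the 11 genes of sterol sensing and uptake, INSIG1 and STARD4 had positive differences and VLDLR a negative one, against 0.987% and 1.13% of all genes. STARD4, a sterol carrier, lost its call without any of 9 arrays (0.53 ± 0.14, largest adjusted p 0.116). VLDLR, a lipoprotein receptor, rose by 0.90 in U937 and 0.38 in MOLM14 (-0.52 ± 0.12) and lost its call without MOLM14 control B, MOLM14 metformin C or U937 metformin C (largest adjusted p 0.0688). Of the 14 fatty acid synthesis genes 6 fell and 1 rose in U937 (9.74% and 7.46% of all genes). In MOLM14 4 fell and 1 rose (2.57% and 2.48% of all genes). For the difference FASN and ACSL1 were positive and ACACB negative, against 0.987% and 1.13% of all genes. ACACB, the acetyl-CoA carboxylase of the mitochondrial surface that limits fatty acid oxidation, rose by 0.81 in U937 and stood at 0.17 in MOLM14 (-0.64 ± 0.14). ACSL1, which activates long-chain fatty acids, rose by 0.44 in MOLM14 and stood at -0.14 in U937. Its difference of 0.58 ± 0.13 lost the call without MOLM14 control B or MOLM14 metformin A (largest adjusted p 0.0555). SCD, the stearoyl-CoA desaturase, fell by 0.56 in U937 and 0.48 in MOLM14, and the difference of 0.08 ± 0.11 did not pass. FITM2, a protein of lipid droplet formation, fell in U937 by 0.51 and stood at 0.41 in MOLM14 (difference 0.92 ± 0.19, adjusted p = 0.00749).

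HSPA1A and HSPA1B, near-identical HSP70 genes, had positive differences. HSPA1A, an inducible HSP70, measured 8.30, 8.29 and 8.17 in untreated U937 and 6.90, 7.13 and 7.04 in treated U937. In MOLM14 it measured 7.04, 6.79 and 6.90 and then 6.54, 6.58 and 6.67. Groups did not overlap in either line, but the MOLM14 change of -0.31 did not pass (limma, adjusted p = 0.0652). The difference was 0.92 ± 0.14 (adjusted p = 0.000598), and for HSPA1B it was 0.72 ± 0.13, so their separate values are uncertain. Of 14 heat shock genes 7 fell in U937 and 2 in MOLM14 (9.74% and 2.57% of all genes), and the list median of the difference was 0.20. HSPA1A and HSPA1B were the only called differences of the 14, against 0.987% of all genes called positive. HSPH1, a nucleotide exchange factor for HSP70, fell by 0.83 in U937 and 0.49 in MOLM14 and its difference did not pass (limma, adjusted p = 0.107).

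Of 32 ribosome biogenesis genes, 19 fell and 1 rose in U937 (9.74% and 7.46% of all genes) and 0 passed in MOLM14 (2.57% of all genes fell there), with medians of -0.29 and -0.03. The difference was positive for 31 of the 32, against 5588 of all 10641 genes, with a median of 0.27. It was called only for NIP7, a factor of large subunit assembly. That 1 call, against 0.987% of all genes, says nothing particular about the list. NIP7 went from 8.84, 8.93 and 8.81 to 8.09, 8.39 and 8.43 in U937, without overlap, and in MOLM14 read 8.65, 8.82 and 8.87 untreated and 8.93, 8.78 and 8.83 treated. Its difference was 0.62 ± 0.13 (limma, adjusted p = 0.0107).

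Among 73 mitochondrial ribosome genes 22 fell in U937 and 2 in MOLM14, against 9.74% and 2.57% of all genes. The MOLM14 count is near that share. Only MRPL17 was called for the difference (0.49 ± 0.12), against 2.11% of all genes, which says nothing particular about the list. MRPL17 lost its call without any of 9 arrays (largest adjusted p 0.0787). DNA replication genes fell in both lines: 22 of 24 in U937 and 13 in MOLM14 (9.74% and 2.57% of all genes). CCNE1, the cyclin of S phase entry, fell by 0.83 in U937 and 0.34 in MOLM14 (difference 0.49 ± 0.12). It was the only called difference of the 24, against 0.987% of all genes called positive. CCNE1 lost its call without MOLM14 control B, MOLM14 metformin C, U937 control A, U937 control B or U937 metformin A (largest adjusted p 0.0947). Of the 23 genes of the oxidative stress response KEAP1 (0.48 ± 0.12) and SRXN1 (0.41 ± 0.11) were positive, against 0.987% of all genes. With 1 array left out at a time, KEAP1 lost its call for 10 arrays and SRXN1 for 9 (adjusted p up to 0.104 and 0.133).

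Mitosis genes had mostly negative differences. Of 47 tested, 22 fell in MOLM14, while 12 fell and 2 rose in U937, with medians of -0.30 and -0.10. Of all genes, 2.57% fell in MOLM14, and 9.74% fell and 7.46% rose in U937. The difference was negative for 40 of the 47, against 5052 of all 10641 genes, with a median of -0.18. It was called negative for PLK4 and KIF15, against 1.13% of all genes. PLK4, the kinase of centriole duplication, fell by 0.35 in MOLM14 and stood at 0.14 in U937 (-0.50 ± 0.12). For KIF15, a spindle motor, neither line passed (-0.24 in MOLM14 and 0.22 in U937, difference -0.45 ± 0.11). PLK4 lost its call without any of 7 arrays (largest adjusted p 0.0939). KIF15 lost it without MOLM14 control A, MOLM14 control C, MOLM14 metformin C, U937 control A or U937 metformin C (largest adjusted p 0.0777). The mitotic kinase PLK1 fell by 0.47 in MOLM14 and 0.26 in U937, and its difference did not pass.

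E2F7, a repressor of E2F targets named after its values were seen, fell in MOLM14 from 7.50, 7.81 and 7.65 to 6.97, 6.93 and 6.64. All its U937 arrays were below 4.02 (difference -0.89 ± 0.14, limma, adjusted p = 0.00105).

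SESN2, DDIT3, DDIT4, ASNS, AARS1, WARS1 and PSAT1, stress and amino acid genes, rose in both lines and rose further in U937. SESN2, a leucine sensor that restrains mTORC1, measured 4.87, 4.96 and 4.77 in untreated U937 and 6.54, 6.83 and 6.73 in treated U937, a 3.56-fold rise. In MOLM14 it measured 5.95, 5.95 and 6.19 and then 6.85, 6.58 and 6.79, a 1.64-fold rise. Treated arrays of the lines overlapped each other, and untreated MOLM14 arrays all lay above untreated U937. The difference was -1.12 ± 0.18 (limma, adjusted p = 0.00089), with the lines 1.16 apart untreated and 0.04 apart treated.

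DDIT3 went from 4.44, 4.06 and 4.20 to 5.79, 5.77 and 5.96 in U937 and from 4.95, 5.12 and 5.08 to 5.75, 5.72 and 5.71 in MOLM14. MOLM14 minus U937 was 0.81 untreated and -0.11 treated, and the difference was -0.93 ± 0.17 (limma, adjusted p = 0.00252). DDIT4, an mTORC1 inhibitor also induced by hypoxia, went from 4.62, 4.85 and 4.75 to 6.40, 6.40 and 6.57 in U937. In MOLM14 DDIT4 went from 7.62, 7.55 and 7.59 to 8.31, 8.25 and 8.39, so every MOLM14 array was above every U937 array. Its difference was -0.99 ± 0.16 (limma, adjusted p = 0.00101).

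Of 11 transcription factors and kinases of the stress response, 7 rose and 1 fell in U937 (7.46% and 9.74% of all genes). In MOLM14 4 rose (2.48% of all genes). Of this list DDIT3 and ERN1 had a negative difference, against 1.13% of all genes. ERN1, the unfolded protein sensor IRE1, rose by 0.89 in U937 and stood at 0.27 in MOLM14 (-0.62 ± 0.16), and lost its call without any of 9 arrays (largest adjusted p 0.122). ATF4 itself rose in U937 by 0.40 and stood at 0.04 in MOLM14, a difference of -0.36 ± 0.14 that did not pass (limma, adjusted p = 0.187). ATF5 (0.50 ± 0.16, adjusted p = 0.122) and TRIB3 (0.21 ± 0.13, adjusted p = 0.472) leaned the other way and did not pass, with ATF5 up by 1.11 in MOLM14 and 0.61 in U937. CTH, of cysteine synthesis, rose by 1.34 in U937 and 1.26 in MOLM14, and the NKG2D ligand ULBP1 by 1.32 and 1.27, and neither difference passed (limma, adjusted p = 0.879 and 0.953).

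Amino acid synthesis and tRNA charging held 3 called genes each, all negative. ASNS, asparagine synthetase, rose by 1.10 in U937, from 5.72, 5.66 and 5.73 to 6.89, 6.68 and 6.86, and by 0.63 in MOLM14, from 7.19, 7.29 and 7.29 to 7.85, 7.93 and 7.88. Its groups were far apart within each line, but the difference of -0.48 ± 0.12 lost the call without any of 8 arrays (limma, adjusted p = 0.0331 with all arrays and up to 0.0826 without 1). PHGDH, which opens serine synthesis, rose by 0.64 in U937 and stood at 0.15 in MOLM14 (-0.49 ± 0.11, adjusted p = 0.0174, and 0.0507 without MOLM14 control B). PSAT1, of the same pathway, rose by 1.07 in U937 and 0.70 in MOLM14 (-0.37 ± 0.10, adjusted p = 0.0451). It lost the call without any of 11 arrays (largest adjusted p 0.098).

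GARS1, the glycyl-tRNA synthetase, went from 9.23, 9.23 and 9.27 to 10.18, 10.04 and 10.14 in U937, and in MOLM14 from 9.11, 9.31 and 9.37 to 9.58, 9.53 and 9.43. The MOLM14 groups did not overlap, but the change of 0.25 did not pass (limma, adjusted p = 0.0839). Its difference was -0.63 ± 0.12 (adjusted p = 0.0032). AARS1, for alanine, rose by 0.88 in U937 and 0.40 in MOLM14 (-0.48 ± 0.10, adjusted p = 0.00719). WARS1, for tryptophan, had a difference of -0.50 ± 0.10 (adjusted p = 0.00854), but a second row gave 0.06 and the mean of both rows did not pass (adjusted p = 0.362).

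Over the lists, 3 of 10 amino acid synthesis genes (median -0.15), 3 of 18 synthetases (median -0.06) and 3 of 14 mTORC1 brakes (median -0.13) had a negative difference, against 1.13% of all genes. Beside SESN2 and DDIT4 the mTORC1 list held FNIP2, a folliculin partner (-0.56 ± 0.15), which lost the call without any of 9 arrays (largest adjusted p 0.134). Arrays centred on their medians ended the calls of ASNS, PHGDH, PSAT1, ERN1 and FNIP2. The promoters of ASNS and AARS1 are shown because both hold letters like the CARE, the composite C/EBP-ATF element that ATF4 binds; matches are in capitals, RefSeq, GRCh38.p14.
ASNS promoter, chr7:97872444-97872501, minus strand: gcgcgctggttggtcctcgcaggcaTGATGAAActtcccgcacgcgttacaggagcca
AARS1 promoter, chr16:70289661-70289718, minus strand: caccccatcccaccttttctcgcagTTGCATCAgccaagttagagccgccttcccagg
The search used TGATGNAA on both strands, and the matches start 68 bases upstream in ASNS, on the gene's strand, and 187 bases upstream in AARS1, on the other. Such letters were in 3 of 93 promoters with a negative difference (3.23%), the other 1 being ARID5B, and in 3 of 77 with a positive one (3.9%). They were in 1.77% of promoters of tested genes and in 3.67% of all 27305 promoters searched.

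Of 10 glucose-sensing genes 2, TXNIP and ARRDC4, fell and 1 rose in MOLM14 (2.57% and 2.48% of all genes), and the list median there was -0.03. TXNIP, an arrestin that removes glucose transporters from the membrane and is switched on by sugar phosphates through MondoA, had the largest negative difference. It went from 7.90, 7.92 and 8.18 to 6.32, 6.47 and 6.28 in MOLM14, a 3.12-fold fall. In U937 it read 5.32, 5.52 and 5.34 untreated and 5.05, 5.48 and 4.97 treated, with overlap. The difference was -1.41 ± 0.17 (limma, adjusted p = 5.08e-05), and MOLM14 stayed above U937 by 1.19 after treatment, from 2.61 before.

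ARRDC4, its relative, went from 5.17, 4.52 and 4.90 to 3.98, 4.07 and 3.75 in MOLM14, while all U937 arrays lay below 4.02 (difference -1.18 ± 0.21, limma, adjusted p = 0.00225). OGA, which removes O-GlcNAc from proteins, rose in U937 by 0.75 and stood at 0.15 in MOLM14 (-0.61 ± 0.12, adjusted p = 0.00426). OGT, which adds that sugar, rose in both lines, by 0.34 in U937 and 0.41 in MOLM14, and its difference did not pass. In all 3 of the 10 genes had a negative difference, against 1.13% of all genes. IRS2, an adaptor of the insulin receptor, fell by 0.82 in MOLM14 and 0.36 in U937 (-0.46 ± 0.12) and lost its call without any of 9 arrays (largest adjusted p 0.135). CAB39L, a scaffold of the LKB1 kinase complex that activates AMPK, rose in U937 from 5.99, 5.86 and 5.92 to 7.11, 6.85 and 7.01. In MOLM14 it read 4.17, 4.21 and 4.35 and then 4.19, 4.26 and 4.43 (difference -1.01 ± 0.14, limma, adjusted p = 0.000218).

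Of the 28 monocyte and macrophage genes 6 fell and 1 rose in MOLM14, and of the 17 granule genes 3 fell and 0 rose, against 2.57% and 2.48% of all genes. The list medians there were -0.06 and -0.07. MPO, the granule enzyme myeloperoxidase, went from 8.92, 8.96 and 8.92 to 7.68, 7.42 and 7.76, and every U937 array was at 3.44 or below. The difference was -1.21 ± 0.13 (limma, adjusted p = 8.59e-06). VNN1, a pantetheinase of myeloid cells, went from 4.38, 4.59 and 4.67 to 3.24, 3.29 and 3.11, the level of U937 (3.14 to 3.23), with a difference of -1.31 ± 0.14 (limma, adjusted p = 8.59e-06). All U937 arrays of both genes were below 4.02.

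MNDA, a nuclear antigen of myeloid cells, was measured in both lines. It went from 6.81, 6.74 and 7.06 to 5.65, 5.64 and 5.67 in MOLM14 and from 10.07, 10.06 and 9.86 to 9.74, 9.55 and 9.61 in U937. Both falls were free of overlap and that of MOLM14 was the larger (-0.86 ± 0.14, limma, adjusted p = 0.00101). CCR2, the receptor of CCL2, fell in MOLM14 from 6.19, 6.36 and 6.03 to 5.29, 5.37 and 5.35 and was below 4.02 on every U937 array (-0.80 ± 0.15, adjusted p = 0.0032).

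CSF1R, the M-CSF receptor, fell in MOLM14 by 0.66 from 6.11, 5.97 and 5.89 to 5.41, 5.37 and 5.21. In U937 it read 4.47, 4.29 and 4.36 and then 4.24, 4.49 and 4.35, with overlap. Its difference of -0.65 ± 0.15 (limma, adjusted p = 0.021) lost the call without MOLM14 control A, MOLM14 metformin C, U937 control B or U937 metformin B (largest adjusted p 0.0696).

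CES1 moved in both lines and AOAH in U937. CES1, a carboxylesterase of macrophage lipid handling, rose in U937 from 9.29, 9.23 and 9.23 to 9.66, 9.51 and 9.70 and fell in MOLM14 from 8.91, 8.87 and 8.94 to 8.23, 8.49 and 8.50. The opposite moves gave a difference of -0.88 ± 0.14 (limma, adjusted p = 0.000869). AOAH, which detoxifies bacterial lipopolysaccharide, rose in U937 from 6.81, 7.01 and 6.75 to 7.55, 7.47 and 7.71. In MOLM14 AOAH read 4.53, 4.68 and 4.30 untreated and 4.53, 4.26 and 4.32 treated (-0.86 ± 0.15, adjusted p = 0.00252).

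Of the 28 monocyte and macrophage genes, 5 had a negative difference (VNN1, MNDA, AOAH, CES1 and CSF1R), against 1.13% of all genes. VNN1 was below 4.02 on all U937 arrays, so its difference rests on MOLM14. In the list 1 gene had a positive difference, against 0.987% of all genes. The positive one was TLR2, a receptor of bacterial lipopeptides named after its values were seen, which rose by 0.57 in MOLM14 and stood at -0.17 in U937 (0.74 ± 0.19). TLR2 lost its call without any of 9 arrays (largest adjusted p 0.115). The list median was -0.05, and -0.17 without U937 metformin A, against 0.01 for all genes. Among 17 granule genes MPO was negative and CEACAM6, an adhesion protein of granulocytes, positive, against 1.13% and 0.987% of all genes. CEACAM6 fell in U937 by 0.78 and was below 4.02 in MOLM14 (0.95 ± 0.21, adjusted p = 0.0128, and 0.051 without MOLM14 metformin C).

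Some of the largest differences belonged to no list. SNAR-B1, a short RNA of RNA polymerase III, fell in U937 from 7.81, 7.95 and 7.80 to 5.36, 6.12 and 5.91 and read 10.68, 10.75 and 10.49 against 10.02, 10.24 and 10.48 in MOLM14. The difference was 1.67 ± 0.23 (limma, adjusted p = 0.000218), and 0.99 ± 0.17 for SNAR-C1, a near-identical family member, so neither can be assigned to 1 copy. TARP fell in U937 from 8.94, 8.95 and 8.80 to 7.15, 7.32 and 7.28, with the MOLM14 means below 4.02 (1.34 ± 0.19). It lies in the T cell receptor gamma locus, whose transcripts can share its probes.

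FBXO10, a subunit of a ubiquitin ligase, rose in U937 from 5.78, 5.82 and 5.97 to 6.85, 6.69 and 6.85 and stood at -0.06 in MOLM14 (-1.0 ± 0.19, limma, adjusted p = 0.00377). MYBPH, a myosin-binding protein, fell in MOLM14 by 1.13 (-1.22 ± 0.16) and TMEM45A by 1.13 (-1.17 ± 0.15), and both were below 4.02 in U937. PLXNA1, a semaphorin receptor, rose in MOLM14 by 0.66 and stood at -0.21 in U937 (0.86 ± 0.16, adjusted p = 0.00377). For FGF7P6, a pseudogene with the opposite moves listed above (1.10 ± 0.21), a second row gave -0.04 and the mean of both rows did not pass.

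Of 37 interferon-inducible genes IRF1, a transcription factor of that response, was called (0.50 ± 0.13), a count near the 2.11% of all genes. IRF1 rose by 0.62 in MOLM14 and stood at 0.12 in U937, and lost its call without any of 9 arrays (largest adjusted p 0.12). Of 13 p53 targets CCNG2, an atypical cyclin, was called (-0.67 ± 0.15), with -0.45 in MOLM14, which passed, and 0.22 in U937, which did not. Against 1.13% of all genes called negative, 1 call in 13 genes says nothing particular about the list. Several groups held no called difference, which at 2.11% of all genes says nothing particular about groups of this size. It was 0 of 10 for glycolysis and lactate export, 0 of 8 for the TCA cycle, 0 of 21 for respiratory complexes II to IV, 0 of 10 for one-carbon metabolism, 0 of 29 for stem and progenitor genes, 0 of 27 for autophagy and lysosome and 0 of 19 for apoptosis regulators. HK2 (0.26 ± 0.15), LDHA (0.30 ± 0.17), CS (-0.13 ± 0.16) and VEGFA (-0.15 ± 0.14) did not pass, and VEGFA rose in both lines, by 0.83 in U937 and 0.69 in MOLM14. RRM2 (-0.11 ± 0.12) and CD36 (-0.11 ± 0.12) fell in both lines without a called difference. IL31RA, a cytokine receptor gene that rose by 1.27 in U937 and 1.13 in MOLM14, did not pass either (-0.14 ± 0.16). Amino acid transporters, replication-dependent histones, CHAC1 and IL1B were not analysed here.

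**Figure D3:**
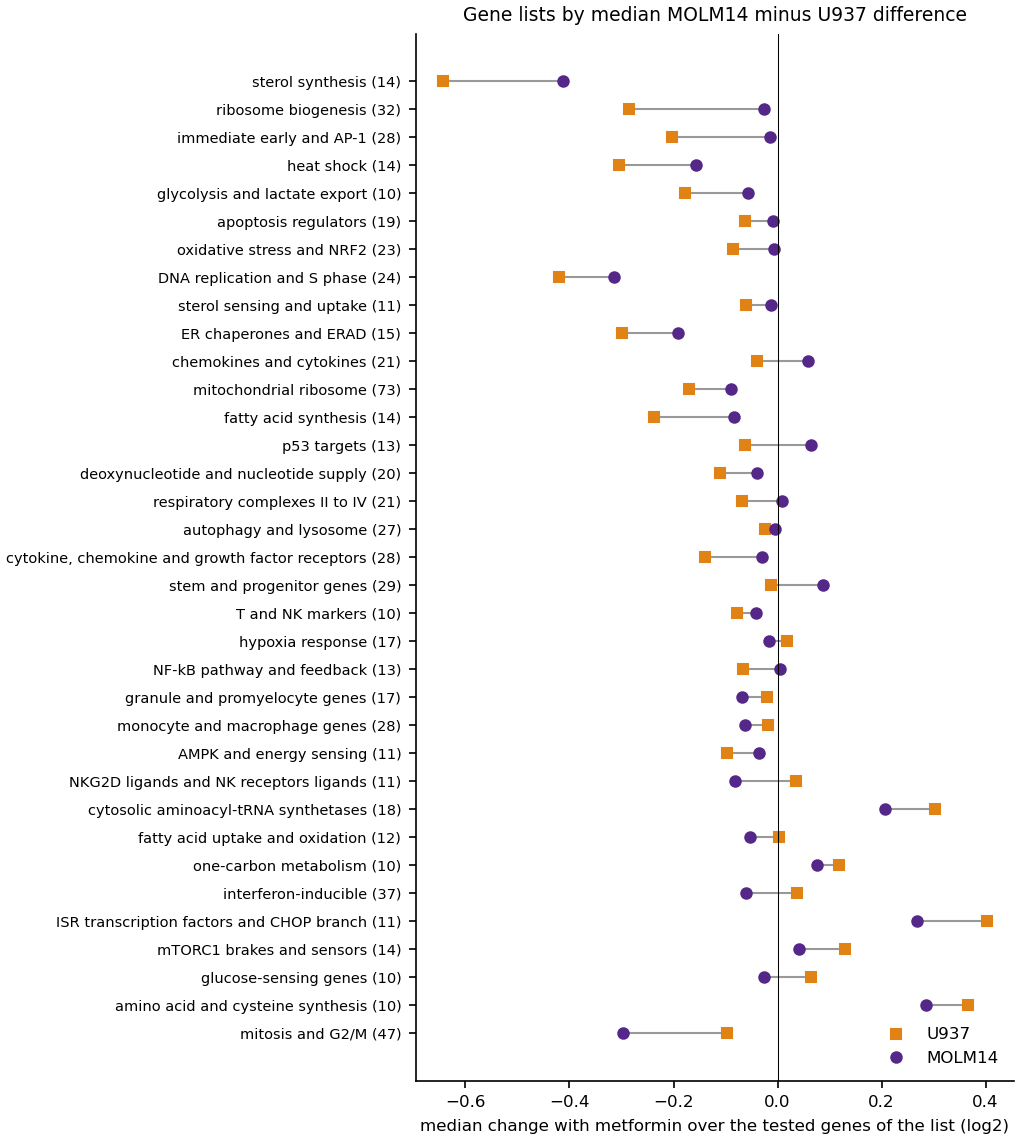
Median change with metformin (log2) over the tested genes of each list in U937 (orange squares) and MOLM14 (purple circles), for lists of at least 10 tested genes, with that number in brackets. Sterol synthesis lies lowest in both lines, at -0.64 in U937 and -0.41 in MOLM14, ribosome biogenesis is below 0 mainly in U937, and mitosis genes lie lower in MOLM14 (-0.30) than in U937 (-0.10).

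KG1a and HL60, a second pair with 1 high and 1 low OXPHOS line, share no array with MOLM14 and U937 but were fitted in the same model. The corresponding difference, KG1a minus HL60, was called for 901 genes (8.47%). Of the 225 genes, 34 were called there with the same sign, 15.1% of the 225 and 3.77% of the 901, and 19 with the opposite sign (8.44% and 2.11%). The other 172 were not called there. A test of the difference between the pairs was passed by 410 genes in all (3.85%) and by 93 of the 225, and in 72 of those the pairs had opposite signs.

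Of the 34 genes of the same sign, 9 were higher and 25 lower. All 901 genes called for KG1a minus HL60 split in much the same way, 229 higher and 672 lower. SESN2 changed by 2.47 in HL60 and 0.37 in KG1a, where it did not pass. DDIT3 changed by 2.43 in HL60 and 0.03 in KG1a, and DDIT4 by 2.69 and -0.07, so the difference of these 3 genes was larger in the KG1a and HL60 pair (-2.10, -2.39 and -2.76). For each the test between the pairs passed (limma, adjusted p = 0.0254, 0.000451 and 1.97e-05). INSIG1 fell by 1.70 in HL60 and stood at -0.11 in KG1a (1.59 against 0.96, pairs not called different, adjusted p = 0.0563). TNF had 0.82 and 0.88 in the 2 pairs, which were not called different (adjusted p = 0.897), with a fall of 0.94 in HL60.

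Other members differed between the pairs. CXCL8 stood at 0.24 in HL60 and -0.06 in KG1a, and the pairs differed (limma, adjusted p = 0.000139). MPO (adjusted p = 0.000451) and VNN1 (adjusted p = 2.26e-05) also differed between the pairs, with KG1a minus HL60 at -0.08 and 0.20. Both genes were below 4.02 on all U937 arrays, so those tests rest on the fall in MOLM14. The means of VNN1 in HL60 and KG1a and of MPO and CXCL8 in KG1a were below 4.02 as well, and CXCL8 was below it in MOLM14. TXNIP fell by 1.99 in HL60 and 1.16 in KG1a, so its sign was turned (0.82 against -1.41, adjusted p between pairs 2.56e-06). MNDA fell in HL60 by 0.64 and stood at 0.12 in KG1a (0.76 against -0.86). SPRY2 rose in HL60 by 0.53 and stood at -0.29 in KG1a (-0.81 against 0.76). PSAT1, E2F7, GPR84 and MIR181B1 were opposite in sign as well.

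**Figure D4:**
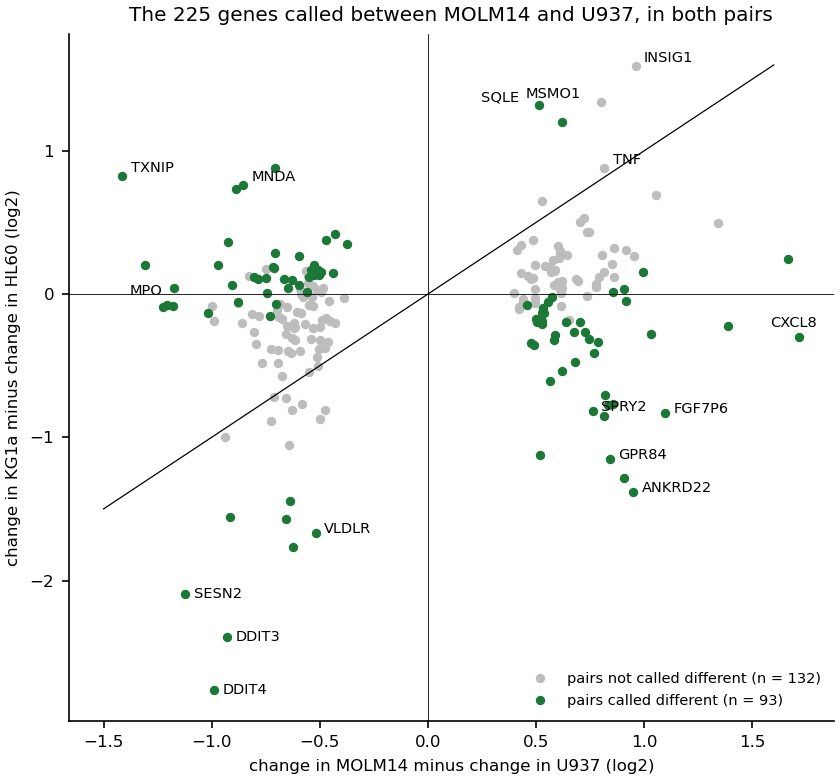
Difference in response between MOLM14 and U937 (horizontal axis, log2) and between KG1a and HL60 (vertical axis, log2) for the 225 called genes. Green points are the 93 genes whose 2 differences differed from each other by the test, grey points the others, and the line marks equality; SESN2, DDIT3 and DDIT4 lie below it and TXNIP and MNDA in the upper left.

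**Figure D5:**
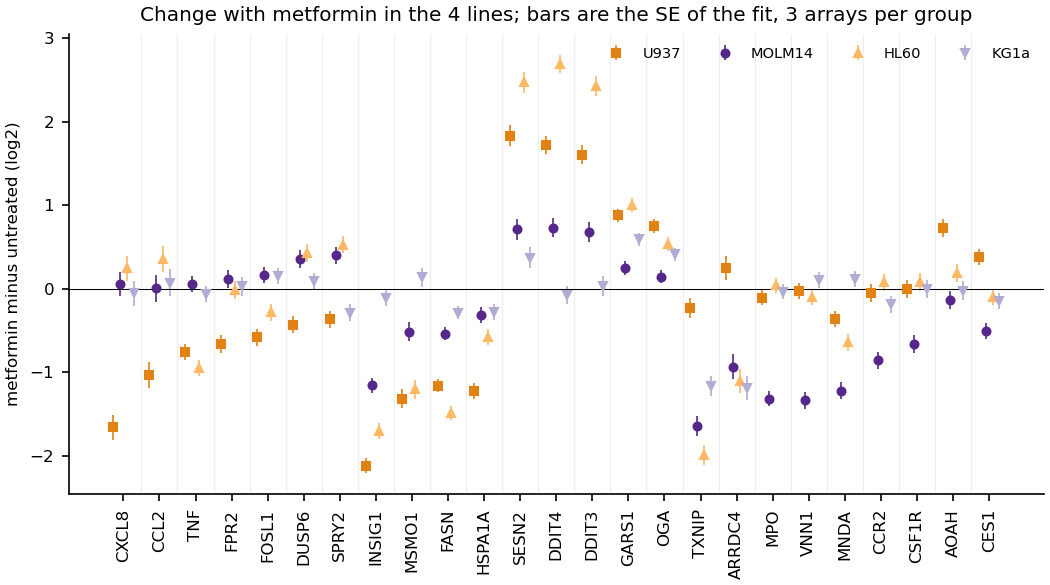
Change with metformin (log2) of 25 members in U937, MOLM14, HL60 and KG1a, with bars for the SE of the fit (3 arrays per group). CXCL8 and CCL2 lie well below 0 in U937, MPO, VNN1 and CCR2 in MOLM14, and SESN2, DDIT4 and DDIT3 have their highest values in HL60 (2.47, 2.69 and 2.43).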

How the data were processed

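Total RNA (250 ng) of the 4 lines was hybridized to 24 Affymetrix arrays according to the labels' protocols. The authors deposited log2 signals, a unit judged from the range of 1.88 to 14.2. The only tool in the submitters' processing notes is Partek, with no version. How background, normalization and probe sets were handled, and the genome build, is not given in the sources used here.

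Of 53617 rows 16098 name 1 gene in the platform annotation and 37519 name none here. All 16098 gene identifiers matched RefSeq. Of 14884 genes, each by its row with the highest mean, 10641 reached 4.02, the median of all rows, in at least 1 of 8 group means. A model of 8 group means (16 residual degrees of freedom) was fitted with limma 3.58.1 (R 4.3.3), with empirical Bayes moderation and Benjamini-Hochberg adjustment. The calculations were tested on simulated data. Figures used matplotlib 3.10.9.

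Members and the 44 gene lists were chosen with earlier results of these data known. Named genes are the 15 largest differences each way with arrays free of overlap in a line, up to 4 called genes per list, a fixed set of 46 (42 tested) and the 5 largest per response pattern; 9 more were named after their values were seen. Alternatives covered normalization, centring, filters, moderation, array weights, the row per gene, the replicate letter as a block, the 12 arrays alone and leaving out arrays. At most 5 rows were identical between arrays of a group, whose correlations were 0.984 to 0.993.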

Additional observations from a re-analysis of the deposited data

Results flagged for a closer look

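The difference in response passed for 225 genes, each of which by its own test changed by unequal amounts in MOLM14 and U937. Of these, 9 were called in both lines in opposite directions. The difference between MOLM14 and U937 itself differed from that between KG1a and HL60 for 410 genes. Among the 225, the KG1a and HL60 pair gave a called difference of the opposite sign for 19. Outside the named genes, 69 of 21285 tested array rows without a gene name here passed the difference in response (0.324%), 46 higher and 23 lower. Groups of 3 are too small for a gap test of single values, and the U937 arrays that stand apart were left out only as an alternative.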

How the results depend on the processing

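None of the 93 called genes picked by the naming rules changed sign under any alternative. Apart from the 1.5-fold minimum, 57 stayed called under each alternative that tested them. The 57 include differences under 1.5-fold, such as that of SQLE (0.52). The 225 genes became 139 in a fit of the 12 arrays alone (67 higher, 72 lower), 139 with a minimum of 1.5-fold (63 and 76) and 482 with array weights (259 and 223). In the fit of the 12 arrays alone 27 of the 93 lost the call, among them MYC, CCNE1, VLDLR, ASNS, PSAT1, JUNB, SPRY4, PLK4 and KIF15. Of the lower ones, 77 were left with arrays centred on their medians and 78 with genes at or above the median in both lines, a filter chosen after seeing the data. The 1.5-fold minimum left 91 genes in MOLM14, 263 in U937 and 469 for KG1a minus HL60. Array weights gave 980 genes in MOLM14 and 761 for the difference between pairs, and without both arrays that stand apart U937 had 1087. Leaving out 1 array gave 130 to 246 genes for the difference in response (60 to 151 higher, 70 to 135 lower), 307 to 598 in MOLM14, 1136 to 1799 in U937, 825 to 1010 for KG1a minus HL60 and 304 to 523 between pairs. The split was 151 higher and 95 lower without U937 control C, 115 and 92 without both arrays that stand apart, and 135 and 174 after quantile normalization. The replicate letters did not pair the arrays (mean correlation of deviations -0.03 for the same letter and 0.02 for others). With a replicate block 189 genes were called, 185 of them shared, and 11 of the 93 named genes lost the call. The cause of these shifts was not tested. Signal over background was not used here, so how far low signal limits each difference was not tested.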
